A study of Mus musculus with 14 samples.

Results

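Kidneys of mice born preterm and never made diabetic (preterm non-diabetic, PT-ND) were compared with kidneys of mice born at term and never made diabetic (term non-diabetic, T-ND). The comparison used 3 PT-ND and 4 T-ND libraries of the 14 in the series, chosen by their labels alone. All 14 came from female CD-1 mice, an outbred stock, labelled wild type and killed at 18 weeks, with the whole kidney used for RNA. The other 7 libraries were 4 term diabetic (T-D) and 3 preterm diabetic (PT-D) kidneys of mice given streptozotocin (STZ), a toxin of pancreatic beta cells, and they appear below only beside the genes of the main comparison.

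PT-ND and T-ND mice carried the same label for treatment, which is none. Preterm pups were delivered by Caesarean section 1 day before term, revived and raised by foster mothers that received acepromazine, a sedative, in the drinking water around the time of fostering. Term pups were born vaginally and stayed with their own mothers. Delivery, fostering and the sedative therefore cannot be told apart from the length of gestation, and preterm birth stands for all of them below. The labels do not give the dam or litter of a mouse, so that litter mates within a group cannot be recognised. All mice received cationic ferritin before the kidneys were taken, and the sequenced kidney was shielded from fixative by a clamp. Labels name kidneys as separate samples, and p-values measure the spread between these mice.

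Nephrons form before birth and, in the mouse, for some days after it. Proximal tubules make up most of the organ's RNA, with smaller shares from distal segments, collecting ducts, podocytes, vessels and immune cells. NF-kB is a transcription factor held inactive in the cytoplasm by its inhibitors. Once released it raises chemokines, endothelial adhesion molecules and its own inhibitors, among them Nfkbia and Tnfaip3, so that these genes often move as a group.

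Counts on genes lay between 16867340 and 21951304 per T-ND library and between 18188647 and 18922371 per PT-ND library. The correlation of log2 normalized counts across genes, which are not independent, lay between 0.966 and 0.979 within T-ND, between 0.968 and 0.977 within PT-ND, and between 0.965 and 0.977 across the groups. The median was 0.970 across the groups, 0.973 within T-ND and 0.972 within PT-ND, so that the ranges overlapped and the median across groups was slightly lower. The groups also overlapped on the first principal component, which held 29.3% of the variance. The labelled tissue was checked against its markers, and the summed normalized counts of 12 markers of proximal tubule segments S1 and S2 lay between 161329 and 251164 in T-ND and between 217274 and 257535 in PT-ND. None of 195 tested markers of 18 cell types was called in edgeR, and the medians of these lists lay between -0.77 and 0.41 on the log2 scale. Bulk RNA cannot tell fewer cells of a type from less RNA per cell. Y-linked genes had 0 counts in all 7 libraries and Xist had counts in each, and all are labelled female.

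Preterm birth without diabetes went with a small set of called genes. A differentially expressed gene (DEG) had an adjusted p under 0.05 in edgeR's quasi-likelihood test and differed by more than 1 on the log2 scale in either direction, and 18 of 22254 genes tested met this, or 0.0809%. Of these, 16 were higher in PT-ND (0.0719%) and 2 were lower (0.00899%). All 18 separated the groups without overlap, as did 5.48% of all genes in the higher and 5.54% in the lower direction. Without the adjustment, 2379 genes (10.7%) had a p under 0.05, 1234 of them higher (5.55%) and 1145 lower (5.15%), and the median log2 fold change over all genes was -0.00053. DESeq2 called 164 genes, or 0.737%, with 109 higher (0.49%) and 55 lower (0.247%), and the 18 were among them.

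Single kidneys moved the number of DEGs more than the normalization did. Leaving out T-ND replicate 3 raised it to 96. Without T-ND replicate 1 there were 9, without T-ND replicate 2 there were 13 and without T-ND replicate 4 there were 6. Without PT-ND replicate 1, 2 or 3 the numbers were 9, 1 and 5. Of the 18 DEGs, 5 were called in at least 5 of these 7 fits. Catspere2, BC018473 and Ccl2 were called in 6 each, and Cxcl2 and Lama3 in 5 each. The other 13 were called in 3 or fewer, although none of the 18 changed direction in any of the 7 fits.

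**Figure D1:**
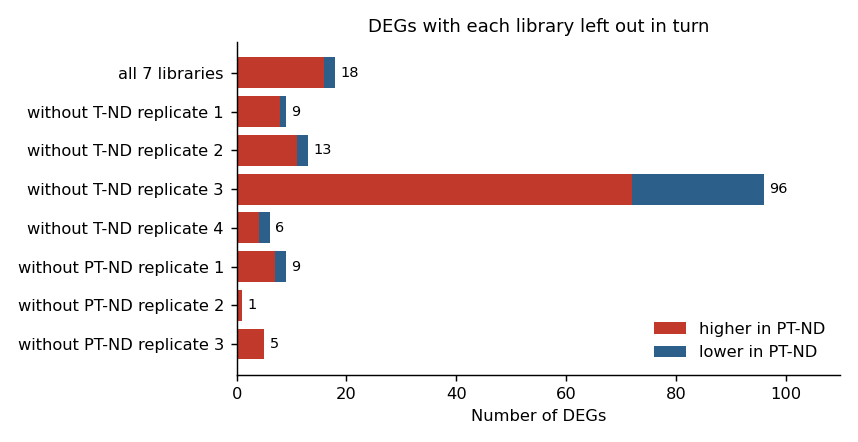
Number of DEGs between PT-ND and T-ND (horizontal axis) with all 7 libraries and without each of them singly (vertical axis); red is higher and blue lower in PT-ND. The count is 18 with all libraries, 96 without T-ND replicate 3 and 1 without PT-ND replicate 2.

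The first 6 of the 16 higher DEGs described here were put together after the calls were known, and 5 of them are members of the NF-kB or chemokine lists. Ccl2, Cxcl2, Sele, Tnip3, Plaur and Ch25h encode 2 chemokines, an endothelial adhesion molecule, an inhibitor of NF-kB, the urokinase receptor and the enzyme that makes 25-hydroxycholesterol. They were 2.65 to 14.7 times higher on the fitted scale in PT-ND. Values below are counts normalized to library size (TMM), in the order of the replicate numbers.

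Ccl2 (11, GRCm39 position 81926397 to 81928279), which draws monocytes into tissue, had 709, 686, 713 and 877 normalized counts in T-ND and 2297, 1850.3 and 1795 in PT-ND. The log2 fold change was 1.41 ± 0.14 (SE, n = 3 and 4) with an adjusted p of 0.00649 in edgeR. Every PT-ND kidney was well above every T-ND kidney, and the spread within each group was narrow.

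Cxcl2, which attracts neutrophils, had 54.7, 45.7, 90.1 and 54.8 normalized counts in T-ND and 846, 480 and 273 in PT-ND. Its log2 fold change was 3.12 ± 0.36 with an adjusted p of 0.0184 in edgeR. The PT-ND kidneys differed widely among themselves, with replicate 1 highest, and did not overlap T-ND. Sele, the E-selectin of activated endothelium, showed the same order of PT-ND kidneys, with 1268, 663 and 318 normalized counts against 146, 82.2, 90.1 and 133 in T-ND. Its log2 fold change was 2.73 ± 0.40 with an adjusted p of 0.0442 in edgeR. Tnip3, an A20-binding inhibitor of NF-kB, was close to silent in T-ND, at 10.7, 7.31, 8.38 and 11.8 normalized counts, and reached 262, 104 and 57.7 in PT-ND. It had the largest log2 fold change of the 6, at 3.88 ± 0.50 with an adjusted p of 0.0281 in edgeR.

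Ch25h was even across the PT-ND kidneys, with 237, 215 and 247 normalized counts against 65.4, 84.0, 71.2 and 53.7 in T-ND. Its PT-ND to T-ND difference was 1.76 ± 0.21 on the log2 scale with an adjusted p of 0.0200 in edgeR. Plaur had 129.5, 101, 168 and 158 normalized counts in T-ND and 371, 459 and 321 in PT-ND. PT-ND exceeded T-ND by 1.46 ± 0.21 on the log2 scale, with an adjusted p of 0.0442 in edgeR. In Ch25h and Plaur, PT-ND replicate 1 was not the highest kidney, unlike in Cxcl2, Sele and Tnip3.

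**Figure D2:**
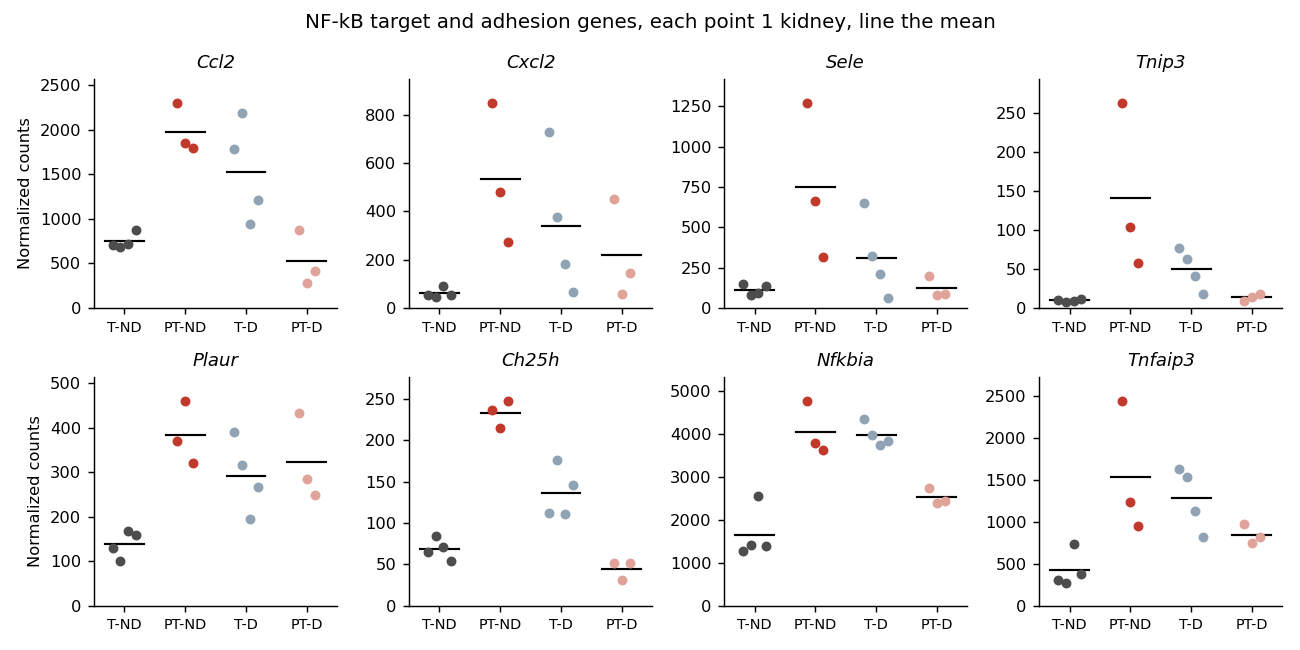
Normalized counts (vertical axes, from 0) of 8 genes in the 4 groups (horizontal axes); each point is 1 kidney and each line a group mean, with no error bar. In Ccl2 the 3 PT-ND kidneys lie between 1795 and 2297 and the 4 T-ND kidneys between 686 and 877; Nfkbia and Tnfaip3 did not pass the test.

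A list of 30 feedback regulators and targets of NF-kB, chosen after the values were seen, had 3 DEGs (Tnip3, Sele and Plaur), 27 members with a log2 fold change above 0 and a median of 1.18. Over all genes 49.9% were above 0. In 15 of the 30 every PT-ND kidney was above every T-ND kidney, against 5.48% of all genes, a difference that the choice of the list after its values builds in. Nfkb1, Nfkb2, Traf1, Tnip2 and Birc2 were far from the threshold, with adjusted p-values of 0.437 to 0.683 in edgeR. Nfkbia had 1276, 1415, 2555 and 1402 normalized counts in T-ND and 4765, 3788 and 3626 in PT-ND. Its log2 fold change of 1.29 ± 0.23 did not pass, with an adjusted p of 0.100 in edgeR. Tnfaip3, the deubiquitinase A20 that shuts NF-kB off, had 307, 270.4, 736 and 376 normalized counts in T-ND and 2439.6, 1237 and 949.6 in PT-ND, with an adjusted p of 0.147 in edgeR. Socs3 and Maff had log2 fold changes of 1.97 and 1.55 with adjusted p-values of 0.0731 and 0.0690 in edgeR, and did not pass. In DESeq2, 14 of the 30 were called higher, against 0.49% of all genes, a difference that the choice of the list likewise builds in.

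T-ND replicate 3 stood out within its own group for these genes. It was the highest T-ND kidney in 25 of the 30 members, against 27.8% of all genes. Without it the list median rose from 1.18 to 1.53, and Nfkbia, Tnfaip3, Socs3 and Maff were called. PT-ND replicate 1 was the highest PT-ND kidney in 22 of the 30, against 37.9% of all genes, and without it the median was 0.94. It also had the largest share of uniquely mapped reads outside genes of the 7 libraries, 5.42% against 2.39% to 3.82% in the others. With both kidneys left out, a choice made after seeing the data, the median was 1.28. The part of RNA quality or handling in these values was not tested.

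Chemokines and immediate early genes had fewer calls. Of 25 chemokines and cytokines tested, 21 had a log2 fold change above 0, 2 were DEGs (Ccl2 and Cxcl2) and the median was 0.65. Next by p was Tnf, at 33.3, 18.3, 46.1 and 37.6 normalized counts in T-ND and 114, 136 and 84.2 in PT-ND, with an adjusted p of 0.131 in edgeR. Of 22 immediate early genes, which respond within minutes to stimuli, 19 had a log2 fold change above 0 and none was a DEG, with a median of 0.67. PT-ND replicate 1 was the highest PT-ND kidney in 17 of the 22 and T-ND replicate 3 the highest T-ND kidney in 14, and the median was 0.41 without the former and 0.90 without the latter. Junb, an AP-1 subunit, came closest, with 1629, 1499.7, 1566 and 1173 normalized counts in T-ND and 3124, 2709 and 2653 in PT-ND. Its log2 fold change was 0.95 ± 0.14 with an adjusted p of 0.0553 in edgeR. Atf3 and Jund followed with log2 fold changes of 1.95 and 0.67 and adjusted p-values of 0.166 and 0.183. Over all genes tested the median was -0.00053, 49.9% were above 0 and 0.0719% were higher DEGs.

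Markers of immune cells and endothelium held no DEG. The 12 neutrophil markers had a median log2 fold change of 0.14, with 6 above 0, and their summed normalized counts lay between 429 and 1228 in T-ND and between 313 and 1518 in PT-ND. The 12 macrophage and monocyte markers had a median of 0.20 and sums of 2609.9 to 4638 in T-ND and 4018 to 4465 in PT-ND. In 3 of these 12 every PT-ND kidney was above every T-ND kidney, against 5.48% of all genes. C1qa and Mrc1 were among the 3, with log2 fold changes of 0.70 and 1.02. Another 4 of the 12 had a log2 fold change below 0, among them Cx3cr1 at -1.65. The 14 endothelial markers had a median of 0.03 and sums of 12345 to 13255 in T-ND and 10268 to 16544 in PT-ND. The sums of the groups overlapped in all 3 lists.

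The 250 bases before the annotated start of Cxcl2, Tnip3, Nfkbia and Plaur are shown because all 4 are in the text above and 3 of them, Cxcl2, Tnip3 and Plaur, were higher DEGs. Nfkbia did not pass the test. The first 3 hold the consensus of NF-kB. They were read from GRCm39 at the start of the canonical transcript of GENCODE M39 and run 5′ to 3′ towards the start. Capitals mark matches to the NF-kB consensus or to the AP-1 motif TGANTCA on either strand, and overlapping matches run together. The Cxcl2 sequence is chr5:91051480-91051729 on the plus strand, Tnip3 is chr6:65502047-65502296 on the plus strand, Nfkbia is chr12:55539433-55539682 on the minus strand and Plaur is chr7:24161625-24161874 on the plus strand.
Cxcl2: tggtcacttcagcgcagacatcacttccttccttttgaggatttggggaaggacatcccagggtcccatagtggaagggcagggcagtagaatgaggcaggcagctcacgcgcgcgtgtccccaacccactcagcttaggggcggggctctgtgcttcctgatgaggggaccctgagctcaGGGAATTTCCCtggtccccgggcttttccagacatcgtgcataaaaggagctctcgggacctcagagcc
Tnip3: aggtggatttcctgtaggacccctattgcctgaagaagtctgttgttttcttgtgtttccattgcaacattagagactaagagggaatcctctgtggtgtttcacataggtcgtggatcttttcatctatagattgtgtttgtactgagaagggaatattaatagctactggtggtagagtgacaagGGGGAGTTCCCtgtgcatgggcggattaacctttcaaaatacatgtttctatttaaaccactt
Nfkbia: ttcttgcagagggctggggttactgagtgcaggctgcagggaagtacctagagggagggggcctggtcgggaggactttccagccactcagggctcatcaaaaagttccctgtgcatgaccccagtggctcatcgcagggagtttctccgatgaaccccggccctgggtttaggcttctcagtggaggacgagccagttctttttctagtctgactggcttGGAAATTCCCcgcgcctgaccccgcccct
Plaur: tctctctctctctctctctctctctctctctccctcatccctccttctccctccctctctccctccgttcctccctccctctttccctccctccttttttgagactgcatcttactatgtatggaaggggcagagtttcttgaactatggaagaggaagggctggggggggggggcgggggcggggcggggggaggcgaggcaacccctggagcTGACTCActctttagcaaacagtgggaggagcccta

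The NF-kB match of Cxcl2 began 69 bases before the start, those of Tnip3 began 63 bases before it and that of Nfkbia, on the opposite strand, 29 bases before it. Plaur had no NF-kB match, and its AP-1 match began 36 bases before the start. In the window of Sele an AP-1 match began 43 bases before the start, and the windows of Ccl2 and Ch25h held neither motif. Among 16142 tested protein-coding genes, 8.59% had an NF-kB match in this window and 5.09% an AP-1 match. Of the 14 protein-coding DEGs that were higher, 3 had an NF-kB match (Cxcl2, Tnip3 and Catspere2) and 2 an AP-1 match (Sele and Plaur). Lama3, a lower DEG, also had an NF-kB match, 64 bases before its start. Of the 30 NF-kB list genes 9 had the first and 8 the second. A match describes letters in this window only, and binding was not measured.

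The other higher DEGs had varied roles. Hdc, histidine decarboxylase, which makes histamine, had the highest level of all DEGs, with 2893, 985, 958 and 2105 normalized counts in T-ND and 9142, 11260.3 and 12921 in PT-ND. The log2 fold change was 2.68 ± 0.36 with an adjusted p of 0.0282 in edgeR. The PT-ND kidneys were close to each other, the T-ND kidneys spread more widely on a log scale, and the groups did not overlap.

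Prr5, a subunit of the mTORC2 kinase complex, had 1453, 1063, 1196 and 914 normalized counts in T-ND and 2573, 2625 and 2963 in PT-ND. The log2 fold change was 1.23 ± 0.16 with an adjusted p of 0.0281 in edgeR. Fxyd6, a regulator of the sodium pump, had 41.6, 51.1, 44.0 and 35.5 normalized counts in T-ND and 135, 162 and 156 in PT-ND. Both genes were tight within each group and apart between them. The log2 fold change of Fxyd6 was 1.80 ± 0.23 with an adjusted p of 0.0281 in edgeR.

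Aldh1a1, which makes retinoic acid from retinal, had 417, 405, 397 and 442 normalized counts in T-ND and 718, 1119.7 and 807 in PT-ND. This difference was 1.09 ± 0.16 on the log2 scale with an adjusted p of 0.0479 in edgeR, the largest adjusted p of the 18. The neighbouring paralogue Aldh1a7 went the other way without overlap, with 241, 374, 259 and 329 normalized counts in T-ND and 99.1, 179.8 and 63.5 in PT-ND, and did not pass (adjusted p = 0.200 in edgeR). The sequences of the pair are similar, and only uniquely mapped reads were counted, so that their split is uncertain.

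Nap1l5, an imprinted gene that lies inside Herc3 on the opposite strand, had 169, 92.2, 156 and 169.8 normalized counts in T-ND and 569, 426 and 382 in PT-ND, with a log2 fold change of 1.65 ± 0.24 and an adjusted p of 0.0442 in edgeR. Herc3 itself had a log2 fold change of -0.07. Prr7, a membrane adaptor, had 19.2 to 39.8 normalized counts in T-ND and 115 to 144 in PT-ND, and was higher by 2.10 ± 0.30 on the log2 scale (adjusted p = 0.0442 in edgeR). Neither gene overlapped between the groups. Prr7 overlaps Dbn1 on the genome, and the libraries hold no strand, so that reads from the shared stretch cannot be told apart. Gm50357, a processed pseudogene, was higher by 1.71 ± 0.22 (adjusted p = 0.0281 in edgeR), and its reads may belong to its parent gene.

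The remaining higher DEGs, BC018473, Catspere2 and Snph, were low or at 0 in T-ND kidneys. BC018473, a long non-coding RNA on chromosome 11 (116642993 to 116650199), had 0 counts in the 4 T-ND kidneys and 294, 1147 and 820 normalized counts in PT-ND. Against a floor of 3 counts per library it was at least 211-fold higher in PT-ND (adjusted p = 0.00649 in edgeR). In the diabetic groups 1 T-D kidney had 2 counts and the other 6 kidneys had 0.

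Catspere2, an auxiliary subunit of the calcium channel of sperm, had 32.1, 44.8, 19.9 and 32.2 normalized counts in T-ND and 252, 280.5 and 216 in PT-ND. The log2 fold change was 2.94 ± 0.27 with an adjusted p of 0.00649 in edgeR. The adjacent paralogue Catspere1 had 0 counts in the 4 T-ND kidneys and 15, 26 and 31 in PT-ND (adjusted p = 0.0638 in edgeR), at least 7.56-fold higher against the same floor. In all 8 kidneys of T-ND and T-D Catspere1 was at 0, and the PT-D kidneys had 1, 0 and 0 counts. Catspere2 had 51.1, 24.1 and 24.8 normalized counts in PT-D.

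Snph, syntaphilin, which anchors mitochondria in axons, had 0, 3, 0 and 0 counts in T-ND and 78, 40 and 24 in PT-ND, at least 14.4-fold higher against the floor (adjusted p = 0.0442 in edgeR). Its mean was under the level at which a gene is named by rule, and it is given because it was the remaining DEG. In the diabetic groups it had 2, 0, 2 and 0 counts in T-D and 57, 55 and 11 in PT-D. All 6 preterm kidneys were thus above all 8 term kidneys, and the difference between the 2 birth comparisons was -0.97 ± 1.52 on the log2 scale (adjusted p = 0.746 for the interaction in edgeR).

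**Figure D3:**
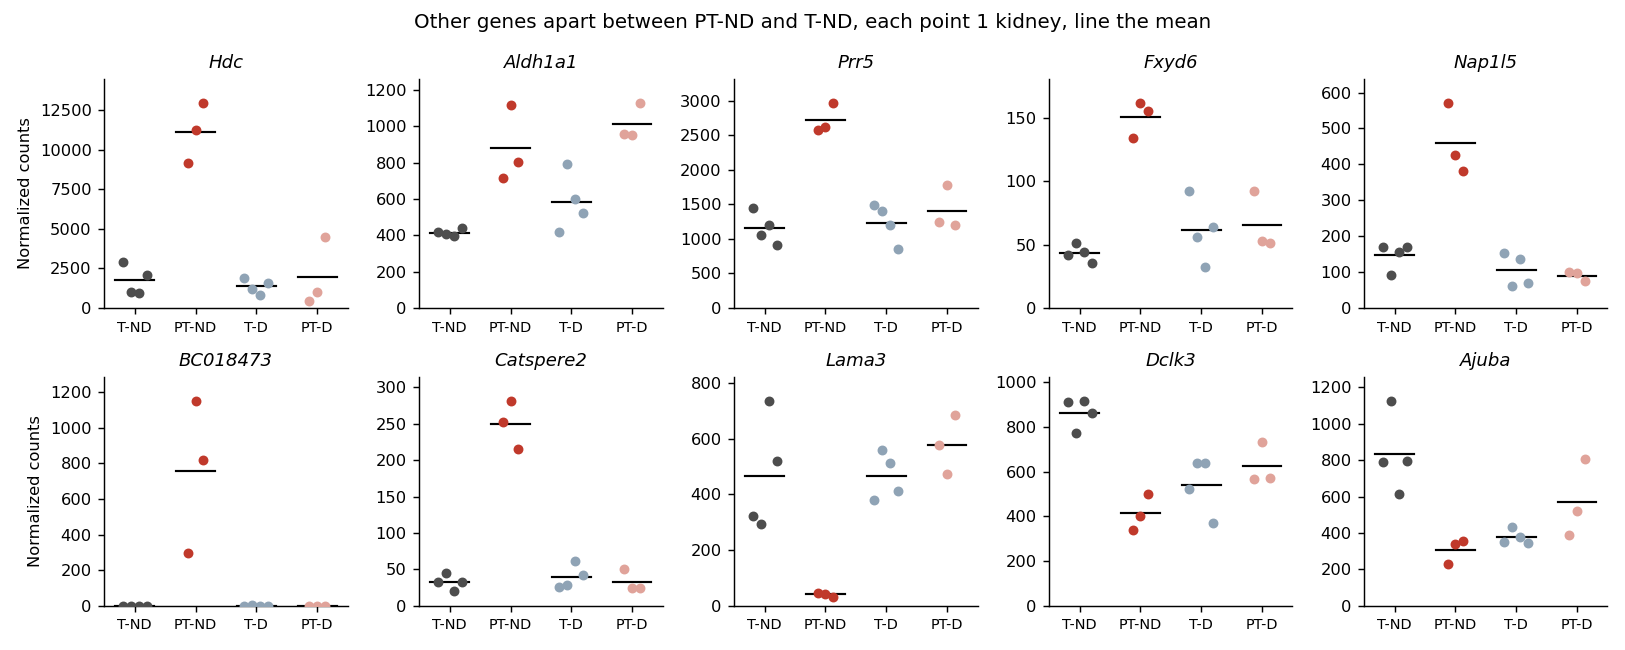
Normalized counts (vertical axes, from 0) of 10 genes in the 4 groups (horizontal axes); each point is 1 kidney and each line a group mean, with no error bar. In Lama3 the 3 PT-ND kidneys lie between 32.3 and 46.9 and the kidneys of the other 3 groups at 295 or above; Ajuba did not pass the test.

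Of the 2 lower DEGs, Lama3 had the larger change. It encodes the alpha 3 chain of laminin, a basement membrane protein, and lies on chromosome 18 (12466876 to 12717747). It had 321, 295, 733 and 518 normalized counts in T-ND and 46.9, 43.0 and 32.3 in PT-ND, a log2 fold change of -3.51 ± 0.36 with an adjusted p of 0.00649 in edgeR. The 3 PT-ND kidneys were alike and far below the other kidneys, since T-D had 380.5 to 558 and PT-D 474 to 685 normalized counts. The neighbouring gene Ankrd29, which lies 27775 bases away on the opposite strand, had a log2 fold change of -1.45 ± 0.24 and did not pass (adjusted p = 0.0713 in edgeR). Lama3 was the single DEG among 26 tested extracellular matrix genes, of which 19 had a log2 fold change above 0, with a median of 0.16. Postn, a matrix protein of fibroblasts, and Fn1, fibronectin, came next with log2 fold changes of -1.50 and 1.07 and adjusted p-values of 0.131 and 0.354 in edgeR.

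Dclk3, a kinase of the doublecortin family, had 909, 771, 913 and 862 normalized counts in T-ND and 340.0, 399 and 499.6 in PT-ND. Its log2 fold change was -1.06 ± 0.16 with an adjusted p of 0.0477 in edgeR. Another 8 genes, the next by p among those with a log2 fold change below -1 and averaging 50 or more normalized counts, did not pass. Plcl2, Ajuba, Slc17a2, Slc15a4, Glt1d1, Ankrd29, 4931408D14Rik and Nuak2 had adjusted p-values between 0.0606 and 0.100 in edgeR. Slc15a4, a transporter of histidine and peptides in endolysosomes, and Glt1d1 overlap on opposite strands of chromosome 5 and had log2 fold changes of -1.06 and -1.73. Ajuba, a scaffold at cell junctions, had 791, 1122, 616 and 794 normalized counts in T-ND and 232, 338 and 358 in PT-ND, with an adjusted p of 0.0630 in edgeR.

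The same genes were also measured in the diabetic groups. PT-D against T-D shares no kidney with the main comparison and had 43 DEGs of 22294 genes (0.193%). None of the 18 was among them, which at this share says nothing about the 18, and 6 of the 18 had the same sign there. Of the 16 higher DEGs, 10 had a log2 fold change below 0 in PT-D against T-D. The interaction in the 14 libraries tested whether the preterm difference with STZ differed from that without it. It was called for 993 of 22339 genes (4.45%) and for 15 of the 18. The 18 were selected on one side of this interaction, so that the latter count is a description only. Some PT-D females received a second course of STZ, which cannot be told apart from preterm birth within the diabetic groups. Ch25h had an interaction of -3.36 ± 0.36 on the log2 scale (adjusted p = 0.000900 in edgeR), Tnip3 one of -5.72 ± 0.77 (0.00474) and Lama3 one of 3.82 ± 0.41 (0.000900).

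In the diabetic groups the log2 fold changes of the inflammatory genes had different signs, and differences between genes were not tested. PT-D exceeded T-D by 0.15 on the log2 scale in Plaur and by 0.24 in Nfkb2, neither called. Ccl2 and Nfkbia were below 0, at -1.54 and -0.66, and were not called either (adjusted p = 0.0820 and 0.0775 in edgeR). Ccl2 had 1782, 2189.8, 937 and 1207 normalized counts in T-D and 874, 284 and 419 in PT-D. Every T-D kidney was above every T-ND kidney and every PT-D kidney below every T-D kidney. The interaction was -2.95 ± 0.46 (adjusted p = 0.00792 in edgeR). Nfkbia had 4344, 3988, 3761 and 3841 in T-D and 2747, 2386 and 2450.3 in PT-D. Over the NF-kB list 12 of 30 interactions were called, and nothing is read from this count, since the list was chosen on the values without STZ, which are one side of the interaction. Aldh1a1, Hdc and Snph were the 3 DEGs without a called interaction. Between PT-D and T-D, Aldh1a1 differed by 0.79 ± 0.21 on the log2 scale (adjusted p = 0.0839 in edgeR), and its 3 PT-D kidneys, at 952 to 1127 normalized counts, were above the 4 T-D kidneys, at 419 to 795.

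**Figure D4:**
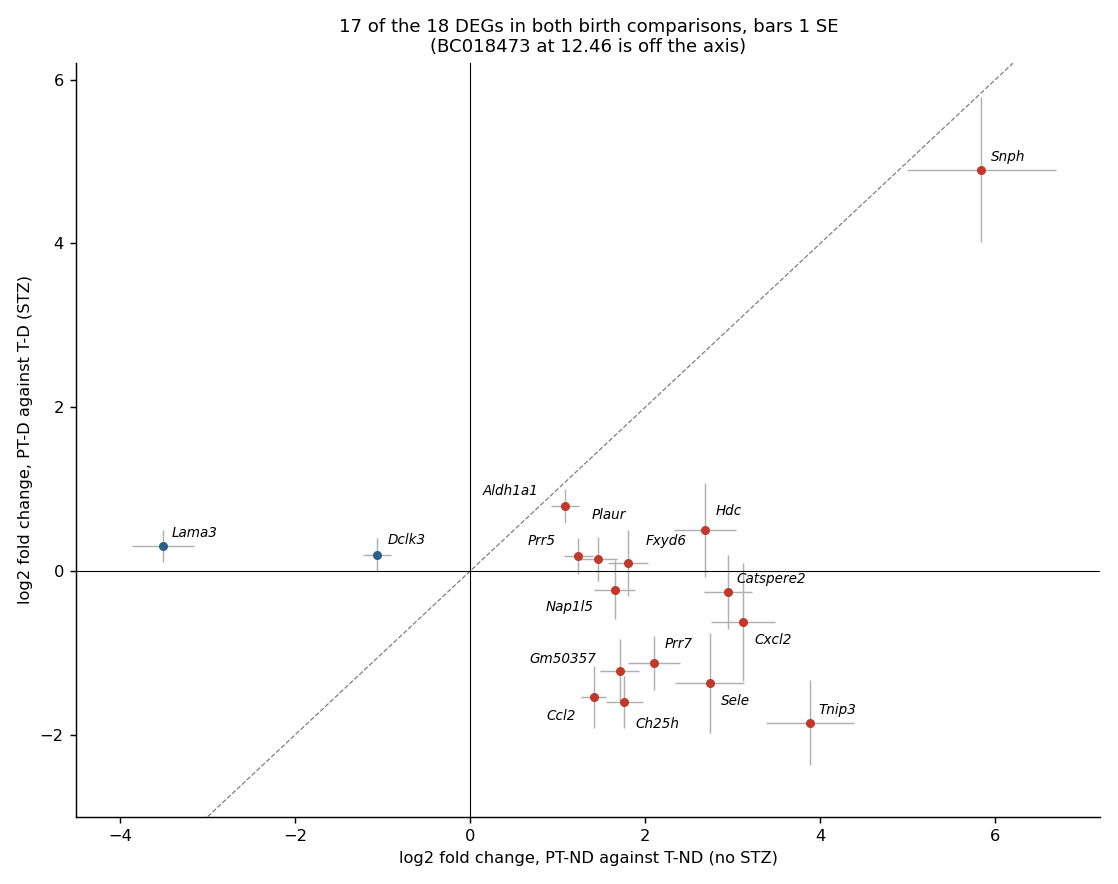
Log2 fold change of 17 of the 18 DEGs in PT-ND against T-ND (horizontal axis) and in PT-D against T-D (vertical axis), with bars of 1 SE; the dashed line marks equal change and BC018473, at 12.46 on the horizontal axis, is left out. Snph and Aldh1a1 lie nearest the line, and Ccl2, Ch25h, Sele and Tnip3 lie below 0 on the vertical axis.

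Other gene groups had few or no calls. Of 26 kidney development genes, 22 had a log2 fold change below 0 (50.1% of all genes had one), none was a DEG and the median was -0.34. Emx2, a transcription factor of the ureteric bud, had 623, 795, 476 and 579 normalized counts in T-ND and 313, 338 and 332 in PT-ND, a difference of -0.92 ± 0.18 on the log2 scale (adjusted p = 0.131 in edgeR). Pax2, another transcription factor of this tissue, had a log2 fold change of -0.70 and an adjusted p of 0.356 in edgeR. Every PT-ND kidney was below every T-ND kidney in 4 of the 26, against 5.54% of all genes. The median was -0.69 without PT-ND replicate 2, which is the kidney that moved it most.

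Of 15 Notch pathway genes, 12 had a log2 fold change below 0, none was a DEG and the median was -0.33. The ligands Jag2 and Jag1 and the receptor Notch2 had the smallest p-values, with log2 fold changes of -1.11, -0.46 and -0.33. Jag2 had 118, 119, 90.1 and 107 normalized counts in T-ND and 63.6, 43.0 and 43.8 in PT-ND (adjusted p = 0.203 in edgeR). The PT-D kidneys had 177, 160.2 and 175, and the interaction was 2.44 ± 0.52 (adjusted p = 0.0244 in edgeR).

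The 23 interferon-stimulated genes all had a log2 fold change below 0, with a median of -0.92 and no DEG. T-ND replicate 3 was the highest T-ND kidney in all 23, and the summed normalized counts were 13239, 25181, 101604 and 29915 in T-ND against 26477, 18421 and 27904 in PT-ND. Without that kidney the median was -0.04, so that the lower level in PT-ND rested on it. Of 19 clock genes, which set daily rhythms, 10 had a log2 fold change above 0 and none was a DEG, with a median of 0.05. The clock repressors Cry1 and Nr1d1 came closest, with log2 fold changes of -1.40 and 1.05 and adjusted p-values of 0.100 and 0.108 in edgeR. The hour at which a kidney was taken is not given in the sources used here.

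Most ribosomal and respiratory chain genes had log2 fold changes slightly above 0. The median log2 fold change was 0.26 over 84 cytosolic ribosomal protein genes (79 above 0), 0.17 over 75 nuclear-encoded subunits of oxidative phosphorylation (68 above 0), 0.17 over 77 mitochondrial ribosomal protein genes (68 above 0) and 0.25 over 13 mitochondrially encoded mRNAs (13 above 0). None of these genes was a DEG. In PT-D against T-D the medians of the 3 nuclear lists were -0.75, -0.79 and -0.68, in the same order. The interaction was called for 21, 20 and 21 of their genes, against 4.45% of all genes. T-D replicate 4 had the highest summed normalized counts of the T-D kidneys in each list, at 890825, 1002520 and 133983. The next highest T-D sums were 552348, 717728 and 92262. These medians and calls are not given without that kidney. PT-ND replicate 3 was the highest PT-ND kidney in 74 of 84, 67 of 75 and 69 of 77 of the nuclear genes, against 34.3% of all genes. Without it the medians of these 3 lists fell to 0.07, 0.01 and 0.05. Among genes averaging 50 or more normalized counts, the median was 0.09 in the tertile of shortest exon length and -0.07 in the longest. The part of length in these lists was not tested.

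**Figure D5:**
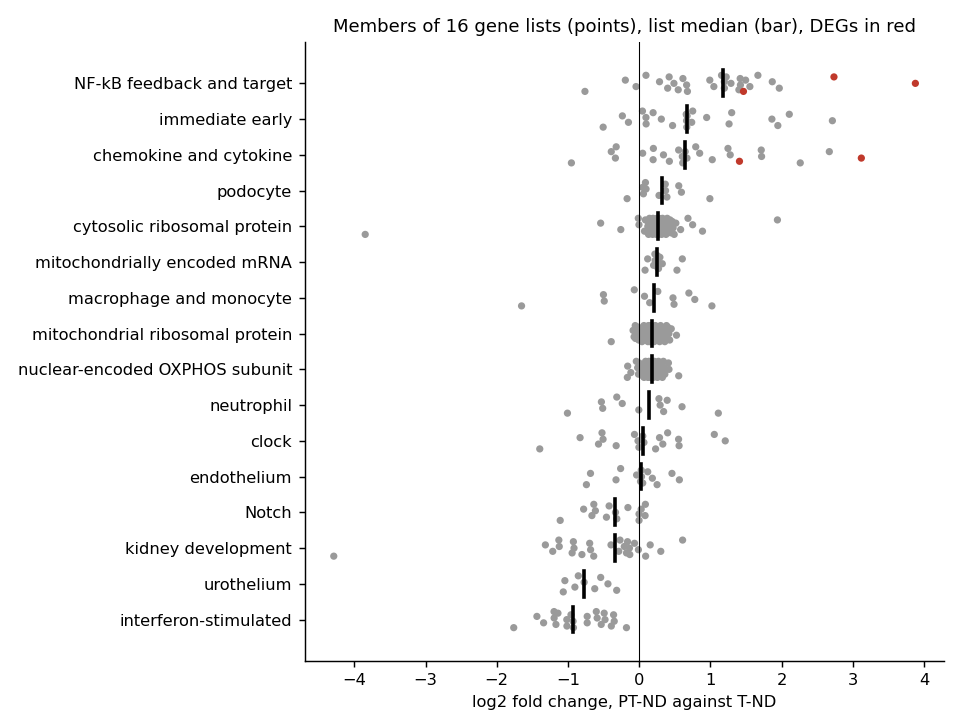
Log2 fold change between PT-ND and T-ND (horizontal axis) of each tested member (points) of 16 gene lists (vertical axis), with the list median as a bar and DEGs in red. The medians run from 1.18 for the NF-kB list to -0.92 for the interferon-stimulated genes, and the red points are Tnip3, Sele and Plaur in the first list and Ccl2 and Cxcl2 among chemokines.

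Podocyte markers had a median of 0.32 (11 of 12 above 0, among them Nes and Plce1 at 0.99 and 0.37) and urothelial markers one of -0.77 (0 of 9 above 0), with no DEG in either. Leaving out PT-ND replicate 1 brought the podocyte median to 0.03 and the urothelial median to -0.33, and without PT-ND replicate 2 the latter was -1.37. The 17 genes of antigen presentation had a median of 0.10, which was -0.04 without PT-ND replicate 1 and 0.68 without T-ND replicate 3. The 32 genes that the study names in its text on female kidneys, chosen by its authors in these libraries, held no DEG here and had a median of -0.05. Havcr1, Fn1 and Lpl had the smallest p-values, with log2 fold changes of -3.92, 1.07 and -0.66 and adjusted p-values of 0.207, 0.354 and 0.407 in edgeR. A further 14 lists, on heat shock, glucocorticoid response, tubular injury, VEGF, the renin-angiotensin system, NRF2, p53, fatty acid oxidation, cholesterol synthesis, gluconeogenesis, male- and female-biased genes, the cell cycle and organic ion transporters, held 242 tested members and no DEG, with medians between -0.35 and 0.35.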

How the data were processed

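Poly(A)-selected, un-stranded libraries were made from whole-kidney RNA. The deposited values are raw counts per gene that the authors obtained with STAR (GRCm39, per the submitters' processing notes; GENCODE M36, per the study's methods; STAR version not given in the sources used here), in which only uniquely mapped reads are counted. The un-stranded column was used and the rows that name no gene were dropped. Unassigned reads outside genes were 2.39% to 5.42% of uniquely mapped reads in the 7 libraries. Of 56980 gene IDs, 56236 were matched to GENCODE M39 for symbols and positions.

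Genes with a total above 10 counts over the 14 libraries and a count in the 7 compared were tested with edgeR 4.0.16 (R 4.3.3, limma 3.58.1), with TMM normalization, the two-sided quasi-likelihood test and Benjamini-Hochberg adjustment over all genes tested. SE is the absolute log2 fold change divided by the square root of F. Per-library values are counts scaled to a mean effective library of 20230100. DESeq2 1.42.0 and other filters and scalings were alternatives. The code was tested on simulated data.

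Genes named by rank had a mean of at least 50 normalized counts. They were all DEGs at this level, filled by p to 10 per direction. From each list its DEGs and the 3 members with the smallest p were named at any level. Some genes that this rule names are not reported here. The comparison, the lists and the tests were chosen with earlier results of these data known. Replicate numbers name samples only, with correlations of deviations between same-numbered kidneys of -0.091, -0.028 and -0.064.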

Additional observations from a re-analysis of the deposited data

Results flagged for a closer look

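Of 47 named genes, 7 had 1 T-ND kidney far from the other 3 by Dixon's criterion, which chance meets in about 1 of 20 groups. T-ND replicate 3 was high in Nfkbia (2555 normalized counts), Atf3 (409.6) and Cxcl1 (1238). T-ND replicate 1 stood apart in Plcl2 (190.1) and H2-Ea (26.1), T-ND replicate 4 in Ccl2 (877) and T-ND replicate 2 in Snph (2.74).

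For 34 of the 47 genes the preterm difference with STZ differed from that without it in edgeR's interaction test, against 4.45% of all genes. The genes were named for the comparison without STZ, which is one side of the interaction, so that this share is a description. Values are the difference with STZ minus that without it on the log2 scale. Among higher DEGs they were -3.21 for Catspere2, -2.95 for Ccl2, -3.76 for Cxcl2, -3.36 for Ch25h, -1.71 for Fxyd6, -5.72 for Tnip3, -2.91 for Gm50357, -1.05 for Prr5, -3.21 for Prr7, -1.87 for Nap1l5, -4.11 for Sele and -1.32 for Plaur. The value of -14.95 for BC018473 depends on the prior count, since nearly all kidneys of the other groups were at 0.

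The lower genes had interactions above 0, at 3.82 for Lama3, 1.27 for Dclk3, 2.03 for Ajuba, 1.24 for Slc15a4, 2.09 for Glt1d1, 3.73 for 4931408D14Rik, 1.52 for Nuak2, 1.61 for Cry1, 1.09 for Emx2 and 2.44 for Jag2. Genes of inflammatory signalling that were not DEGs had values of -1.96 for Maff, -2.44 for Socs3, -1.94 for Nfkbia, -2.32 for Gadd45b, -2.84 for Tnf, -1.81 for Map3k8, -2.46 for Tnfaip3, -3.14 for Cxcl1, -3.25 for Ccl4 and -1.51 for Vcam1. Vwa1, a matrix protein, had -2.47.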

How the results depend on the processing

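The count of 18 DEGs between PT-ND and T-ND lay within 1.5-fold under RLE (18) and upper-quartile (21) scaling, a joint fit of the 14 libraries (22), a robust fit (26), removal of mitochondrial genes (17) and the libraries whose names lack the suffix a (17, of which 4 were shared). It was 164 in DESeq2, 8 with edgeR's own expression filter, 83 with no filter, 10 with a total above 10 over the 7 libraries, 45 with the name suffix as a term, and 55 with T-ND replicate 3 and PT-ND replicate 1 both left out. The last of these and the fit on libraries lacking the suffix were chosen after seeing the data. Leaving out 1 library gave 1 (without PT-ND replicate 2) to 96 (without T-ND replicate 3). With the replicate number as a block there were 6 DEGs, 4 of them shared, although the numbers did not pair the samples. For PT-D against T-D, 43 became 661 in DESeq2, 83 with the block and 26 (without T-D replicate 3) to 105 (without T-D replicate 4). For the interaction, 993 became 1648 in DESeq2, 563 with the block and 76 (without PT-D replicate 3) to 1241 (without T-D replicate 1). The cause was not tested. No named gene changed direction. Values of single genes and list medians, which have no test, were counted together over all alternatives. Of these, 969 kept their side of the threshold or, for medians, did not move. Another 109 passed it newly, 136 no longer passed it and 5 medians moved.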

Other observations

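The genes in this paragraph were picked after their values were seen, and none passed the test. Havcr1 (KIM-1), a marker of injured proximal tubules, had 2638, 2475, 1304 and 57.0 normalized counts in T-ND and 116, 82.6 and 121 in PT-ND. The high kidneys were thus 3 of the term controls, and the groups overlapped through T-ND replicate 4 (adjusted p = 0.207 in edgeR). Rpl26, a ribosomal protein gene, had 3576, 4495, 128 and 3263 normalized counts in T-ND and 107, 227 and 263 in PT-ND, with T-ND replicate 3 at the PT-ND level (adjusted p = 0.200 in edgeR). H2-Ea, a class II antigen presentation gene, had 26.1, 0, 0 and 0 normalized counts in T-ND and 53.2, 861 and 867 in PT-ND (adjusted p = 0.0957 in edgeR). It was 0 in the 4 T-D kidneys and had 30.1, 3.76 and 23.2 in PT-D.

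4931408D14Rik had opposite directions in the birth comparisons. It had 221, 203, 107 and 164 normalized counts in T-ND and 45.9, 65.6 and 53.1 in PT-ND, where it did not pass, against 34.0, 41.4, 47.2 and 33.5 in T-D and 114, 166 and 216 in PT-D. The difference was called in PT-D against T-D, at 2.06 ± 0.30 on the log2 scale (adjusted p = 0.0201 in edgeR).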
